A study of Mus musculus with 21 samples.

Results

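Collagens were read in CGR8 cells, an established mouse embryonic stem cell line, and in the embryoid bodies made from them, which are aggregates in which stem cells begin to form embryonic tissues. The family was taken as every gene whose symbol in the array's annotation has the form Col, a number, the letter a and a number, on probe sets that carry 1 symbol. This gave 42 of the 18194 genes measured, of which 11 encode fibrillar chains, 6 encode chains of basement membrane collagen (type IV) and 25 encode other types. The 42 genes have 82 probe sets, and 27 of them have over 1. Each gene is read from its brightest probe set (by the mean of the 21 arrays), and the others serve as a check. There are 7 groups of 3 arrays, all from the same cell line. Undifferentiated cells at day 0 were in 10% GMEM. Control embryoid bodies at days 2, 3 and 5 were in 20% IMDM, and treated embryoid bodies of the same days were in 20% IMDM with 100 µM ascorbic acid. Aggregates formed from 500 cells in hanging drops of 25 µL and were moved to a shaker after day 2. Day 0 and day 2 thus differ in medium and format as well as in time, and these cannot be told apart. The aggregates of days 3 and 5 were read after the move to the shaker. They differ from those of day 2 in format as well as in time, and these cannot be told apart either. The labels call the replicates biological, and the submitters kept only sample sets that later gave more beating aggregates with ascorbic acid, which limits the arrays to a selected set of cultures.

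Collagens are the main proteins of the extracellular matrix, each built from chains wound into a helix. Fibrillar types make the fibres of connective tissue, type IV forms the sheet-like network under epithelia and vessels and in the first basement membranes of the embryo, and the remaining types decorate fibrils, anchor membranes or span the cell surface. Ascorbic acid is a cofactor of the prolyl and lysyl hydroxylases that modify collagen chains in the endoplasmic reticulum, and it is widely used to increase collagen deposition in culture.

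Levels are on the log2 scale, where 1 unit is a doubling, and errors of differences are standard errors (SE) from limma with n = 3 arrays per group. A gene was called where its p, adjusted by the Benjamini-Hochberg method across the 18194 genes, was under 0.05. Counts at an unadjusted p under 0.05 are given without the share of all genes at that threshold, which was not computed. Arrays of a group correlated at 0.981 or more except at day 0, where replicate 1 had r of 0.966 and 0.969 with the other arrays, against 0.989 between those. The mean of 6 pluripotency markers was 10.45 to 11.62 at day 0 and 6.36 to 6.75 in day 5 controls. The 3' minus 5' signal of the Actb control probe sets, a sign of RNA integrity, was 0.71 to 1.40 over all arrays, 0.96 to 1.05 in day 3 controls, 0.85 to 0.94 in day 5 controls and 0.71 to 1.09 in treated arrays of day 5. Olfactory receptors, which these cells are not known to use, served as a reference for dim signals. Their 44 probe sets had a median of 5.12 over group means and a 95th percentile of 6.64. By their highest group mean, 23 of the 42 collagens exceeded that percentile (8 fibrillar, 4 basement membrane and 11 other), and 19 did not. A fold is given only where the means of both groups compared exceed that percentile.

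The stretches upstream of Col1a2, Col3a1, Col4a5 and Col9a1 are shown because these genes were among the risers from day 3 to day 5. They are from RefSeq on GRCm38.p6, all on the plus strand, and end at the base before the annotated start. The Col1a2 stretch is chr6:4505368-4505617, that of Col3a1 is chr1:45311288-45311537 and that of Col4a5 is chrX:141475169-141475418. Col9a1 has 2 annotated starts, with the stretches chr1:24177360-24177609 and chr1:24194953-24195202. Capitals mark the motif CCAAT, the motif TATAAA and the motif GGGCGG, searched on both strands, and no match printed here overlaps another.
Col1a2: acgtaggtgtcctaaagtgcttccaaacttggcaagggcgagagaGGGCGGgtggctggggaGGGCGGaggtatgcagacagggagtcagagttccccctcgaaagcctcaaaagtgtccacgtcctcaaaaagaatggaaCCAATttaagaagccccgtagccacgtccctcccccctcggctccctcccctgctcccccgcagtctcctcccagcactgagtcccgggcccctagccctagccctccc
Col3a1: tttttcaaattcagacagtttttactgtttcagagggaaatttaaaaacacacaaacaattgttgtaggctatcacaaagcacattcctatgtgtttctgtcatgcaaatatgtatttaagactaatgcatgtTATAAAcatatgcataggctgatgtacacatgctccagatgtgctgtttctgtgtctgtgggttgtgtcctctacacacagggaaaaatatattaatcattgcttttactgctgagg
Col4a5: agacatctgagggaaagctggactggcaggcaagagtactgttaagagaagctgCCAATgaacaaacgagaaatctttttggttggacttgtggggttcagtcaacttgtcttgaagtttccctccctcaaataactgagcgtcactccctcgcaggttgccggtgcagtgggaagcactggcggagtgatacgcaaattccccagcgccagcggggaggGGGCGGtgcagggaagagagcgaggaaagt
Col9a1 first start: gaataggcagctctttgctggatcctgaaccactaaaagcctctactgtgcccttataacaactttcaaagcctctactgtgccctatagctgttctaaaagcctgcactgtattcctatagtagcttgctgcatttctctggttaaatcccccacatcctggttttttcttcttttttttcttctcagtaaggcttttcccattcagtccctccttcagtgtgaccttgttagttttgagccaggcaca
Col9a1 second start: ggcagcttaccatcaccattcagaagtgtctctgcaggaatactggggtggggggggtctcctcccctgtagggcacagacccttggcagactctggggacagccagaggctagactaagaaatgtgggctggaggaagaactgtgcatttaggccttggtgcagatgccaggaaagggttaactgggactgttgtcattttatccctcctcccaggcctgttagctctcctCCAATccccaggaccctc
In these stretches Col1a2 had GGGCGG at 2 places and CCAAT once, Col4a5 had CCAAT and GGGCGG, and Col3a1 had TATAAA alone of the motifs. The first Col9a1 start had none of the motifs and the second had CCAAT. Promoter windows were found for 33 of the 42 genes, 36 windows in all. In the 250 upstream bases CCAAT was present in 36.1% of collagen windows and 33.8% of all 32851 windows, and TATAAA in 13.9% and 12.4%. GGGCGG was present in 58.3% of collagen windows and 32.7% of all windows. Median GC was 59.2% in collagen windows and 52.4% in all. A match is a description of the letters only.

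Some collagens also lie next to each other. In the RefSeq gene order (GRCm38.p6), 8 pairs of collagen genes are neighbours, and both genes were measured in 7. Among them are Col4a1 with Col4a2, Col4a6 with Col4a5, Col3a1 with Col5a2, Col6a2 with Col6a1 and Col9a1 with Col19a1. Col4a1 and Col4a2 are read in opposite directions from starts that overlap by 22 bases, and the starts of Col4a6 and Col4a5 are 1342 bases apart. Neighbours did not always share a call. From day 3 to day 5 in controls, both Col4a1 and Col4a2 rose, while Col3a1 rose and Col5a2 differed by 0.15 ± 0.30 (SE, n = 3 per group, adjusted p = 0.825). Col4a5 rose and Col4a6 differed by 0.21 ± 0.17 on its brightest probe set (adjusted p = 0.504), though its other probe set was called, as given with the probe sets.

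**Figure D1:**
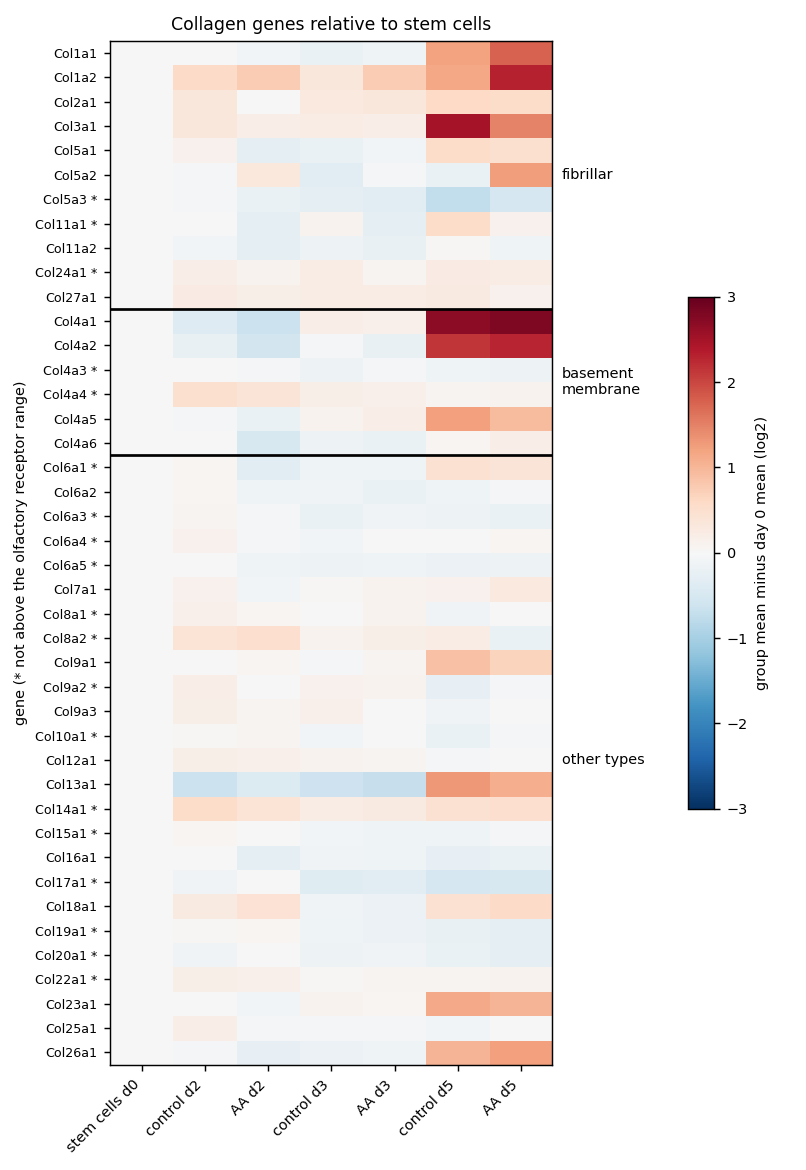
Group means of the 42 collagen genes (rows, by class) minus the day 0 mean, on the log2 scale, in the 7 groups (columns), with genes that do not exceed the olfactory receptor range starred. Colour is concentrated in the day 5 columns, where Col4a1, Col3a1 and Col4a2 were 2.68, 2.48 and 2.15 above day 0 in controls.

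From day 0 to day 2 in controls, 2 of 42 collagens rose and 0 fell, where 4.8% of all genes rose and 6.99% fell, so the share of risers was at the background. The risers were Col4a4, a chain of mature kidney basement membrane (0.48 ± 0.12, adjusted p = 0.0145), and Col14a1, a fibril-associated collagen (0.54 ± 0.16, adjusted p = 0.0274). Neither exceeds the olfactory receptor range. The other Col4a4 probe sets went from means of 4.85 to 4.91 (1425772_at) and of 4.62 to 4.81 (1440250_at). The other Col14a1 probe sets went from means of 5.93 to 5.84 (1453931_at) and of 5.56 to 5.65 (1428455_at). When day 0 replicate 1 was left out, which correlated least with its group, 6 collagens were called. Col4a1 (-0.95) and Col13a1 (-0.93) then fell, and Col24a1 (0.31) and Col27a1 (0.45) joined the risers. Leaving out day 0 replicate 2 or control day 2 replicate 2 gave 0 calls, and leaving out day 0 replicate 3 or control day 2 replicate 1 left Col4a4 alone. From day 2 to day 3, limma called 0 of 42 collagens in controls (background 5.81% of genes in either direction) and 0 with ascorbic acid (background 4.69%). At an unadjusted p under 0.05 there were 2 and 4. In this step Col4a1 went from 7.70 to 8.27 in controls and from 7.43 to 8.24 with ascorbic acid. Fitted on the arrays of the compared groups alone, those differences of 0.57 and 0.81 were called (adjusted p = 0.0499 and 0.00179).

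Between day 3 and day 5 more collagens were called than in either earlier step. In controls 12 of 42 collagens rose and 0 fell, where 9.08% of all genes rose and 9.24% fell. By class, 4 of 11 fibrillar, 3 of 6 basement membrane and 5 of 25 other collagens rose. The median difference was 0.31 for fibrillar, 0.66 for basement membrane and -0.02 for other types, beside -0.03 for all genes. In whole aggregates, more cells of a type and more RNA per cell cannot be told apart.

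Among the basement membrane chains, read from their brightest probe sets, Col4a1 and Col4a2 rose most. These chains form the heterotrimer found in nearly all basement membranes. Col4a1 was at 8.17, 8.43 and 8.21 in the day 3 controls and at 10.93, 11.26 and 10.09 in the day 5 controls. The groups did not overlap, and the difference of 2.49 ± 0.33 is a 5.62-fold rise (adjusted p = 1.87e-05). Col4a2 was at 6.83, 7.17 and 7.09 on day 3 and at 9.46, 9.60 and 8.57 on day 5, which is a rise of 2.18 ± 0.25 or 4.53-fold (adjusted p = 2.57e-06). In both genes day 5 control replicate 3 was the lowest of its group. Col4a5, an X-linked chain of a more restricted network, went from 6.50, 6.11 and 6.37 to 7.53, 7.18 and 7.63, a rise of 1.12 ± 0.16 (adjusted p = 3.86e-05). Here replicate 2 was the lowest on both days. Col4a3 (5.77 and 5.78) and Col4a4 (4.94 and 4.85), its partner chains in kidney, did not exceed the olfactory receptor range in any group.

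Among fibrillar chains, 4 rose in controls from day 3 to day 5. Col1a1 and Col1a2 encode the chains of type I collagen, the main collagen of bone, skin and tendon. Col1a1 was at 6.32, 6.29 and 6.30 on day 3 and at 7.47, 8.21 and 7.45 on day 5, which is a rise of 1.41 ± 0.22 (adjusted p = 8.81e-05). Col1a2 was at 7.0, 7.04 and 7.24 and then at 7.80, 8.39 and 7.59, a rise of 0.83 ± 0.28 close to the threshold (adjusted p = 0.046). That call was lost in 7 of 12 alternatives, among them leaving out any day 3 control, day 5 control replicate 1 (adjusted p = 0.0758) or day 5 control replicate 2 (0.60, adjusted p = 0.224). Col3a1, the type III chain of vessels and soft tissue, was at 4.96, 5.15 and 4.97 and then at 7.37, 9.18 and 5.34. The 3 day 5 controls lay far apart, with replicate 2 highest and replicate 3 near the day 3 values. The mean difference was 2.27 ± 0.53 (adjusted p = 0.00401), 1.33 without replicate 2 (adjusted p = 0.0159) and 3.25 without replicate 3 (adjusted p = 9.56e-07). Col5a1, whose product starts type I fibrils, rose by 0.75 ± 0.14 from a mean of 7.54 to 8.29 (adjusted p = 0.000803). Col2a1, the cartilage and notochord collagen, was at 7.25 and 7.55 (0.31 ± 0.21, adjusted p = 0.374).

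Of the other types, 5 of 25 rose. Col13a1, a transmembrane collagen of cell adhesion sites, was at 5.95, 6.10 and 5.71 on day 3 and at 7.53, 8.41 and 7.63 on day 5. Its rise of 1.94 ± 0.27 (adjusted p = 2.97e-05) followed a day 0 level of 5.98, 6.76 and 6.92, so it was lower at days 2 and 3 than in most day 0 arrays. Col23a1, also transmembrane, rose by 1.04 ± 0.26 (adjusted p = 0.00733), and by 0.69 without day 5 control replicate 2 (adjusted p = 0.0614). Col26a1 rose by 1.2 ± 0.27 (adjusted p = 0.00277), with day 5 values of 5.88, 7.36 and 6.67 that were spread over more than 1 log2 unit. The other Col26a1 probe set, 1458189_at, had control means of 3.82 on day 3 and 3.91 on day 5. Col9a1, a chain of a fibril-associated collagen of cartilage, rose by 0.93 ± 0.15 (adjusted p = 0.000174). Col6a1, a chain of the beaded filaments around cells, rose by 0.58 ± 0.16 (adjusted p = 0.0125) but lies within the olfactory receptor range. Without day 3 control replicate 2 or day 5 control replicate 2 its adjusted p was 0.052 and 0.0765. Col18a1, a basement membrane proteoglycan and the source of endostatin, was above that range throughout, with group means from 9.57 to 10.32. Its difference from day 3 to day 5 was 0.56 ± 0.30 (adjusted p = 0.23). With the arrays of the compared groups alone it was called there (adjusted p = 0.03), in the same step with ascorbic acid (0.75, adjusted p = 0.0466) and as a fall from day 2 to day 3 with ascorbic acid (-0.62, adjusted p = 0.0167). It was also called from day 3 to day 5 without treated day 5 replicate 3 (1.07, adjusted p = 0.0179), and from day 0 to day 5 without day 0 replicate 1 (0.89, adjusted p = 0.00994).

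Besides Col18a1, another 9 collagens above the olfactory receptor range were called in no comparison of either fit over genes. One is Col4a6, with group means of 6.07 to 6.76, and the other 8 varied less. They are Col25a1, a transmembrane collagen found in amyloid plaques, with group means of 8.22 to 8.50, Col6a2, the partner chain of Col6a1, at 8.14 to 8.41, and Col27a1, a fibrillar chain of cartilage, at 7.95 to 8.22. Col16a1 (7.47 to 7.77), Col12a1 (7.28 to 7.50) and Col9a3 (7.14 to 7.42) belong to the fibril-associated types. Col7a1, which forms the anchoring fibrils of skin, was at 7.31 to 7.69, and Col11a2, a cartilage fibril chain, at 6.41 to 6.72. In each of these 8 the highest and lowest group means lay within 0.21 to 0.39 of each other.

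Of the 19 collagens within the olfactory receptor range, 12 were called in no comparison of either fit over genes. They are Col4a3, Col6a3, Col6a4, Col6a5, Col8a1, Col8a2, Col9a2, Col10a1, Col15a1, Col19a1, Col20a1 and Col22a1. Col6a3, the third chain of the classic type VI filament, had group means of 6.33 to 6.63. Col10a1, the collagen of hypertrophic cartilage, was at 4.77 to 5.06. Col8a2, a chain of the network under corneal endothelium, was at 4.58 to 5.29. At this signal a level cannot be set apart from that of probe sets for genes these cells are not known to use.

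**Figure D2:**
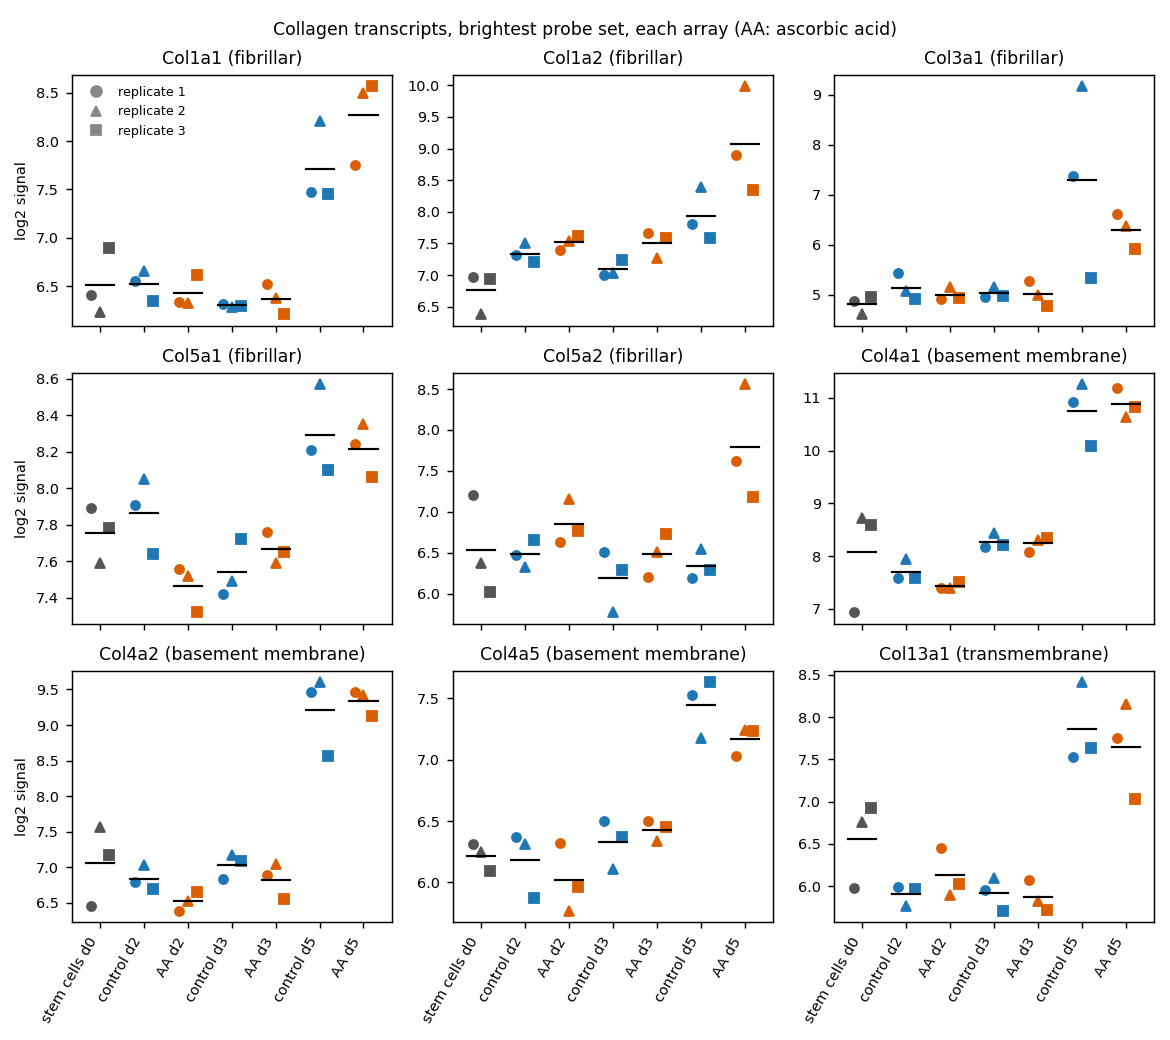
Log2 signal of 9 collagens on each of the 21 arrays (y axis, own scale in each panel) by group (x axis), with a marker shape for each replicate number and a bar at the group mean. Col4a1 lies between 10.09 and 11.26 in all day 5 arrays of both arms, whereas Col5a2 at day 5 is at 6.19 to 6.54 in controls and 7.18 to 8.56 with ascorbic acid.

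With ascorbic acid, 12 of 42 collagens also rose from day 3 to day 5 and 0 fell, where 9.21% of all genes rose and 8.92% fell. The arms share no arrays in this step. Of the collagens that rose, 11 were called in both arms, which is 91.7% of each list. The share of all risers called in both arms was not computed, so this overlap has no background. Col4a1 rose by 2.64 ± 0.33 and Col4a2 by 2.51 ± 0.25, beside 2.49 and 2.18 in controls. Col1a1 rose by 1.90 ± 0.22 and Col1a2 by 1.57 ± 0.28, beside 1.41 and 0.83. Col3a1 was called in controls alone and Col5a2 with ascorbic acid alone. Col3a1 reached 6.61, 6.37 and 5.92 with ascorbic acid, a difference from day 3 of 1.29 ± 0.53 (adjusted p = 0.102). It was called (adjusted p = 0.000538) when the arrays of the compared groups were fitted alone. Col5a2, the second chain of type V collagen, went from 6.2, 6.51 and 6.73 to 7.62, 8.56 and 7.18 with ascorbic acid (1.31 ± 0.30, adjusted p = 0.00369). The test of whether the ascorbic acid effect differs between days passed for neither gene (paired fit, adjusted p = 0.675 for Col3a1 and 0.122 for Col5a2), where 0.511% of all genes passed it.

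Over the whole course from day 0 to day 5 in controls, 16 collagens rose and 2 fell, where 15.9% of all genes rose and 14% fell. The risers were 7 of 11 fibrillar, 3 of 6 basement membrane and 6 of 25 other collagens. The 12 risers from day 3 to day 5 were among them, joined by Col2a1 (0.59 ± 0.21, adjusted p = 0.0341) and by Col11a1, Col14a1 and Col24a1, which do not exceed the olfactory receptor range. Col5a3, a minor type V chain, fell by 0.73 (adjusted p = 0.0251), and Col17a1, a hemidesmosome collagen, fell by 0.50 (adjusted p = 0.00574). Both lie within that range too. The other Col5a3 probe set, 1425984_at, had means of 4.64 at day 0 and 4.59 in day 5 controls. Col14a1 rose on its brightest probe set only. Its other probe sets had means of 5.93 at day 0 and 5.67 in day 5 controls (1453931_at), and of 5.56 and 5.41 (1428455_at). Without day 0 replicate 1 there were 20 calls, and without day 5 control replicate 2 there were 10, so this count leans on those arrays.

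Ascorbic acid was then compared with control on each day. In the unpaired fit limma called 0 of 42 collagens at day 2 (background 0.0055% in either direction), day 3 (0%), day 5 (0.0605%) and on average (0.0275%). Without adjustment 3, 0, 4 and 3 had p under 0.05. The labels do not say what a shared replicate number means. Treated and control arrays of a day and number deviated together, so a paired fit with 9 pairs as blocks stands beside the unpaired fit. Its calls rest on a pairing inferred from the data. The paired limma fit called 0 collagens at day 2 (background 2.64%) and 0 at day 3 (0.198%), with 7 and 2 at an unadjusted p under 0.05. At day 5 it called 2 higher and 0 lower, where 0.78% of all genes were higher and 0.176% lower. On average over days it called 2 higher and 1 lower, where 1.45% of all genes were higher and 0.495% lower. All of these are fibrillar chains.

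Col1a2 and Col5a2 were the collagens higher with ascorbic acid at day 5. Col1a2 was at 7.80, 8.39 and 7.59 in controls and at 8.90, 9.99 and 8.35 with ascorbic acid, higher in 3 of 3 pairs, though treated replicate 3 lay below control replicate 2. The difference was 1.15 (2.22-fold), with an SE of 0.14 and adjusted p = 0.000406 in the paired fit and an SE of 0.28 and adjusted p = 0.24 in the unpaired fit. Its pair differences were 0.08, 0.03 and 0.42 at day 2, then 0.67, 0.23 and 0.35 at day 3, then 1.10, 1.60 and 0.76 at day 5. It was thus higher in 9 of 9 pairs, with an average of 0.58 ± 0.08 (paired adjusted p = 0.000816). Col5a2 was at 6.19, 6.54 and 6.29 in day 5 controls and at 7.62, 8.56 and 7.18 with ascorbic acid. These groups did not overlap, and the difference was 1.45, with adjusted p = 0.00115 (SE 0.20) when paired and 0.10 (SE 0.30) when unpaired. Its average over days was 0.70 ± 0.12, with 8 of 9 pairs higher (paired adjusted p = 0.00391). Leaving out 1 pair at a time kept both genes called at day 5, with differences of 0.93 to 1.35 for Col1a2 and 1.16 to 1.73 for Col5a2. Without treated day 5 replicate 3 both were also called in the unpaired fit (1.52 and 1.75, adjusted p = 0.0105 each). The test of whether their effect differs between days did not pass in the paired fit of brightest probe sets (adjusted p = 0.0685 for Col1a2 and 0.122 for Col5a2). Without pair 3 of day 5 it passed for both (adjusted p = 0.0203 and 0.0384), and without pair 3 of day 2 for Col1a2 (adjusted p = 0.0364).

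Other fibrillar chains are set beside them. Col1a1, the partner of Col1a2 in type I collagen, was at 7.47, 8.21 and 7.45 in day 5 controls and at 7.75, 8.50 and 8.57 with ascorbic acid. It was higher in 3 of 3 pairs by 0.28, 0.29 and 1.12, which did not pass (0.56, paired adjusted p = 0.148). Col3a1 had a mean difference of -1.0 at day 5 with pair differences of -0.76, -2.81 and 0.58 (paired adjusted p = 0.399). Without day 5 control replicate 3 it was called lower in both fits, by -1.97 unpaired (adjusted p = 0.0168) and -1.78 paired (adjusted p = 0.00509). Col5a1, the partner of Col5a2, was at 8.29 and 8.22. Col11a1, a cartilage fibril chain within the olfactory receptor range, was lower in 9 of 9 pairs with an average of -0.36 (SE 0.06, paired adjusted p = 0.00442; 0.497 unpaired).

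**Figure D3:**
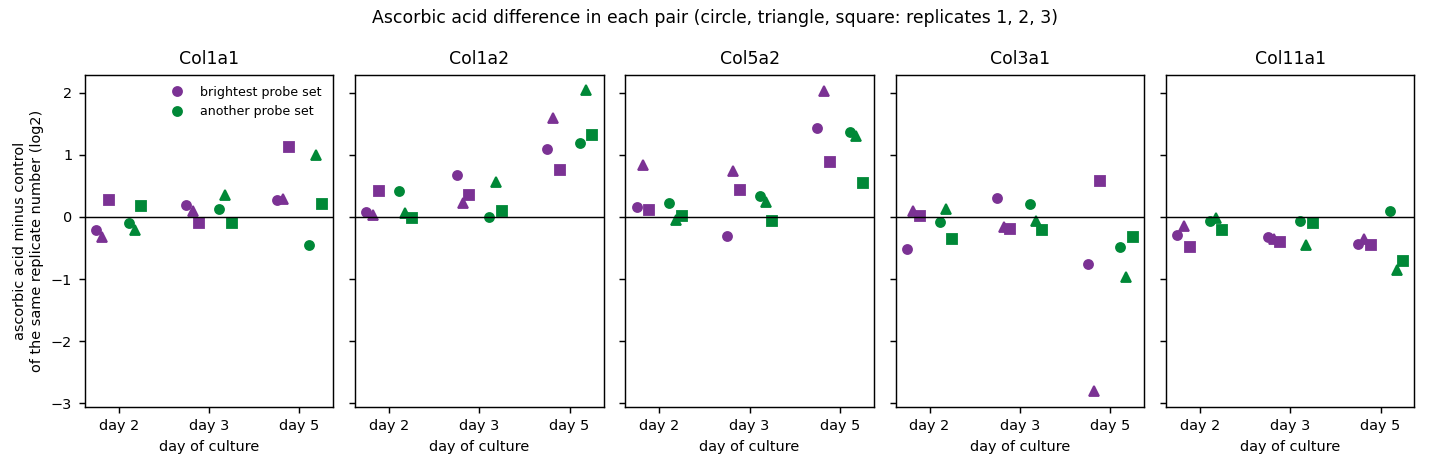
Treated minus control log2 signal of the same replicate number (y axis) at days 2, 3 and 5 (x axis) for 5 fibrillar collagens, with purple for the brightest probe set and green for another probe set of the gene. Col1a2 and Col5a2 lie above 0 in every day 5 pair on both probe sets shown, while Col3a1 spreads from -2.81 to 0.58 on its brightest. Probe set 1446326_at of Col1a2 is not drawn.

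At day 2 no collagen passed the test of ascorbic acid in either fit. Of the 42 differences 32 (76.2%) were below 0, where 52.4% of all genes were. Their median was -0.10, beside -0.01 for all genes and -0.10 for the hydroxylation and export genes described last. All 6 basement membrane chains had differences below 0 on their brightest probe sets. Some of their other probe sets did not. Col4a3 on 1438779_at had means of 3.72 in controls and 3.85 with ascorbic acid, and Col4a4 on 1425772_at of 4.91 and 4.92. Col4a6 was lowest, at 6.75, 6.80 and 6.19 in controls and 5.83, 6.26 and 6.13 with ascorbic acid (-0.51, paired adjusted p = 0.0666). Its other probe set 1421007_at had means of 5.99 in controls and 6.04 with ascorbic acid. Col5a1 was lower in each of 3 pairs with an average of -0.40 (paired adjusted p = 0.061). Without pair 3 of day 2, Col4a6 (-0.73, adjusted p = 0.0093), Col2a1 (-0.61, adjusted p = 0.0162) and Col5a1 (-0.44, adjusted p = 0.0498) were called lower in the paired fit. Signs were also uneven in the control steps that use the day 2 controls. From day 0 to day 2, 28.6% of collagens were below 0 (43.4% of all genes). From day 2 to day 3, 83.3% were (54.5% of all genes). The Actb 3' minus 5' signal was 1.22, 1.40 and 0.94 in day 2 controls and 0.91, 1.08 and 0.91 in treated day 2 arrays. What part the day 2 controls had in these signs was not tested. At day 5 Col4a1 differed from controls by 0.12 (pair differences of 0.25, -0.63 and 0.74) and Col4a2 by 0.13 (0.01, -0.18 and 0.55), so the pairs differed in sign, and the 6 basement membrane chains had a median difference of 0.06.

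Probe sets of a gene can read different parts of its transcripts, and some disagreed in size. Each of the 34958 probe sets with 1 symbol was therefore tested on its own, a check added after seeing the data. From day 3 to day 5 in controls 8.12% of these probe sets rose. Col9a1 showed the widest gap. Its dimmer probe set 1428571_at was at 4.91, 5.00 and 4.52 on day 3 and at 9.03, 10.01 and 9.18 on day 5, a rise of 4.60 ± 0.24 (adjusted p = 4.26e-11), against 0.93 on the brightest. Col4a5 behaved likewise, with 1425476_at at 4.85, 4.60 and 4.07 and then 7.87, 8.52 and 8.25, a rise of 3.71 ± 0.23 (adjusted p = 4.84e-10), against 1.12. On day 3 both of these probe sets had means under the olfactory receptor median. At day 5 with ascorbic acid the Col9a1 probe set was at 8.71 to 9.62, lower than control in 3 of 3 pairs (-0.37 ± 0.12, paired adjusted p = 0.343), and the Col4a5 probe set was at 7.88 to 8.79. Col5a1 rose by 1.92 on 1416740_at and by 0.04 on 1416741_at, beside 0.75. Col4a6 (0.63 ± 0.14 on 1421007_at, adjusted p = 0.00273) and Col11a1 (1.30 ± 0.31 on 1449154_at, adjusted p = 0.00632) were called on their dimmer probe sets only. The Col11a1 probe set had group means of 5.08 or lower, under the olfactory receptor median. Col1a2 missed the threshold in this fit (adjusted p = 0.0524). On 1446326_at, another Col1a2 probe set, the control means were 3.57 on day 3 and 3.49 on day 5.

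For ascorbic acid at day 5, 0.0629% of probe sets were higher in the unpaired probe set fit and 0.609% in the paired one. The dimmer Col1a2 probe set 1423110_at was at 5.63, 6.22 and 5.37 in controls and at 6.82, 8.27 and 6.69 with ascorbic acid. The groups did not overlap (1.52 ± 0.30, adjusted p = 0.0566 unpaired and 8.11e-05 paired). The remaining Col1a2 probe set 1446326_at, within the olfactory receptor range, had day 5 means of 3.49 in controls and 3.51 with ascorbic acid. The dimmer Col5a2 probe set 1450625_at was at 4.62, 4.94 and 4.67 and at 5.98, 6.25 and 5.22, and passed in both fits (1.07 ± 0.18, adjusted p = 0.0168 unpaired and 0.000849 paired). Its highest group mean was 5.82, within the olfactory receptor range. Col9a3 was called on 1460693_a_at (1.00 ± 0.19, adjusted p = 0.0482 unpaired and 0.0104 paired), while its brightest probe set differed by 0.09. That probe set stayed at 5.42 or lower, within the olfactory receptor range. Col3a1 was lower on 1427884_at in the paired fit (-0.59 ± 0.13, adjusted p = 0.0329), also within that range, where 0.143% of probe sets were lower. The test of a difference between days, which 0.429% of probe sets passed in the paired fit, passed for 1423110_at of Col1a2 (adjusted p = 0.0111) and 1450625_at of Col5a2 (adjusted p = 0.0489).

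**Figure D4:**
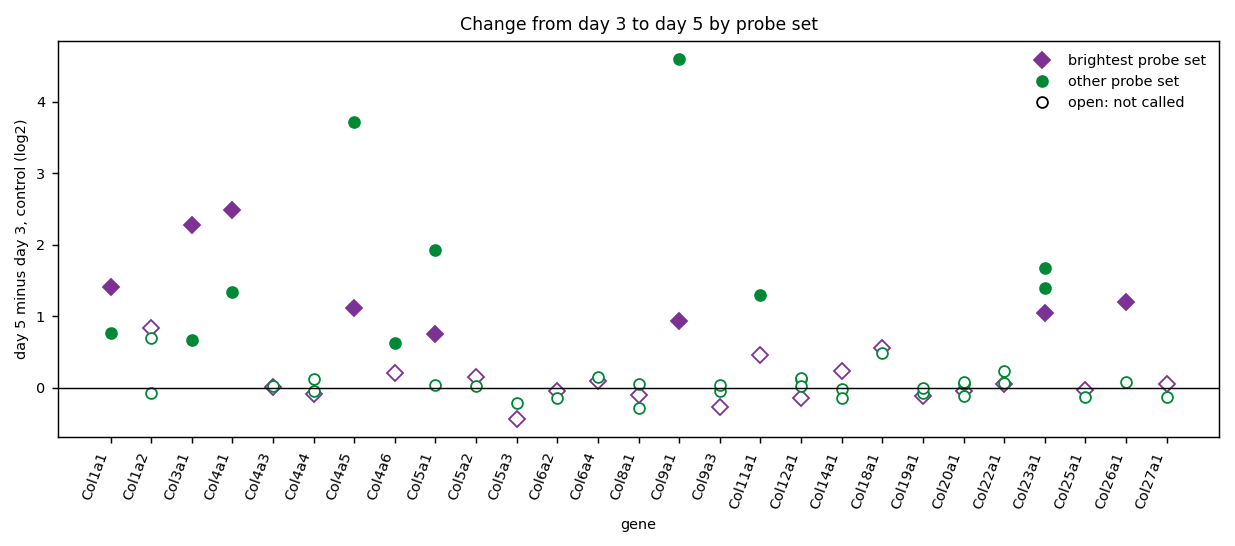
Day 5 minus day 3 in controls (y axis, log2) for each probe set of the 27 collagens that have over 1 (x axis), with diamonds for the brightest and circles for the others, filled where called. Col9a1 and Col4a5 each have a circle far above the diamond, at 4.60 and 3.71 beside 0.93 and 1.12.

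The genes that make, cut and bind collagen were read from lists of partner genes. Their counts from day 3 to day 5 in controls stand beside the 9.08% of all genes that rose and the 9.24% that fell. Hydroxylases, chaperones and export factors rose in 12 of 20 cases and fell in 0 from day 3 to day 5 in controls, with a list median of 0.62. Examples are Serpinh1, the collagen chaperone (2.15 ± 0.27), Creb3l2, a secretory pathway transcription factor (1.93 ± 0.19), P4ha1, a prolyl 4-hydroxylase subunit (1.85 ± 0.28), and P3h2, a prolyl 3-hydroxylase (1.44 ± 0.17). With ascorbic acid 11 of the 20 rose, where 9.21% of all genes did. Of the 9 processing and crosslinking genes 3 rose and 1 fell. They were Loxl1, a lysyl oxidase (1.93 ± 0.24), Adamts3, a procollagen peptidase (1.43 ± 0.26), Bmp1, which removes C-propeptides (0.42 ± 0.12), and Pcolce2, an enhancer of that cut, which fell by 1.64. Of the 9 collagen receptors limma called 0 in controls and 0 with ascorbic acid in this step, with 0 at an unadjusted p under 0.05 in either arm. Collagenases and their inhibitors rose in 2 of 8 cases, Mmp2 (1.94 ± 0.18) and Timp2 (1.03 ± 0.19), and fell in 1, Mmp8 (-0.38).

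In the same step, where 9.08% of all genes rose, 6 of 14 matrix partners rose and 0 fell. The largest rises were Fbn2, a microfibril protein (4.13 ± 0.16), Nid1, which links laminin to type IV collagen (2.61 ± 0.44), Sparc, a collagen-binding protein (2.26 ± 0.13), and Fn1, fibronectin (2.19 ± 0.25). Of the 10 factors that act on collagen genes 5 rose and 1 fell. Tgfb2 (3.90 ± 0.21), Twist1 (2.55 ± 0.26) and Smad3 (1.10 ± 0.21) rose, and Ccn2, a target of TGF-beta signalling, fell by 1.58. Ascorbic acid moved few of these. In the hydroxylation list 0 of 20 genes were called on any day or on average, in limma's unpaired or paired fit. At an unadjusted p under 0.05 the unpaired fit had 2 members at day 2, 1 at day 3, 0 at day 5 and 1 on average. The paired fit had 8, 2, 2 and 5. Without the share of all genes at that threshold, these counts have no background. Of the genes named for the earlier step, Serpinh1 differed by 0.17 at day 5 (paired adjusted p = 0.923) and P4ha1 by 0.16 (paired adjusted p = 0.946). Twist1 was lower on average (-0.91, adjusted p = 0.0293 unpaired and 0.00102 paired), and Fn1 was higher on average by 0.21 in the paired fit (adjusted p = 0.0413; 0.998 unpaired). On average 0.0275% of all genes were called in the unpaired fit, and 1.45% were higher and 0.495% lower in the paired one.

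Markers of cell types that make collagen moved over the same step, in which 9.08% of all genes rose. From day 3 to day 5 in controls, extraembryonic endoderm markers rose in 8 of 14 cases and fell in 0. Their mean level went from 6.35 to 6.80 up to 7.35 to 7.82 across arrays. That mean does not stand for every member. Foxa2 (9.28 to 8.74), Cubn (6.09 to 5.72), Amn (6.24 to 5.89) and Apoa1 (6.95 to 6.82) had lower means at day 5, though not called. Mesenchyme and fibroblast markers rose in 6 of 9 cases and fell in 1, with mean levels of 6.44 to 6.55 and then 7.89 to 8.18. Endothelial markers rose in 3 of 7 cases (5.76 to 5.77, then 6.30 to 7.15) and cartilage and notochord markers in 2 of 6 (5.52 to 5.57, then 6.35 to 6.73). At day 5 the members at or below the olfactory receptor median numbered 1 of 14, 0 of 9, 1 of 7 and 1 of 6. With ascorbic acid at day 5, the mean of mesenchyme markers was at 7.56 to 7.71, lower than control in 3 of 3 pairs (by -0.27, -0.61 and -0.18). Not every member was lower. Vim (12.65 in controls and 12.72 with ascorbic acid), Pdgfrb (7.6 and 7.61) and S100a4 (5.26 and 5.38) had slightly higher means. Snai2, Twist1, Prrx1, Thy1, Postn and Mkx had lower means. Means of the other marker lists were higher than control in 3 of 3 pairs. Endothelial markers were at 6.76 to 7.74 (pair differences of 0.66, 0.54 and 0.46), cartilage and notochord markers at 6.56 to 7.15 (0.42, 0.38 and 0.21) and extraembryonic endoderm markers at 7.46 to 7.98 (0.09, 0.16 and 0.10). The cartilage and notochord difference came mostly from Hapln1, with means of 7.80 in controls and 9.20 with ascorbic acid. Shh was at 7.31 and 7.64, Sox9 at 6.81 and 6.86, and Acan at 5.61 and 5.72. Matn1 was at 4.36 and 4.51 and Matn4 at 7.32 and 7.29. In pair 3 only Hapln1 and Shh of the cartilage and notochord list were higher than control. In the extraembryonic endoderm list Sox7 (6.86 in controls and 7.83 with ascorbic acid) and Thbd (4.3 and 5.05) differed most. Gata4, Hnf4a, Afp, Ttr, Amn and Apoa1 also had higher means with ascorbic acid. Dab2 (9.45 and 9.07), Cubn (5.72 and 5.49) and Pdgfra (10.47 and 10.28) had lower means. So did Foxa2 (8.74 and 8.57), Gata6 (9.95 and 9.93) and Sox17 (8.55 and 8.53). In the paired fit Tek (1.81), Cdh5 (0.97), Sox7 (0.97), Thbd (0.74) and Hapln1 (1.39) were higher at day 5 and Mkx, a tendon transcription factor, was lower (-0.92), where 0.78% of all genes were higher and 0.176% lower. The part of these cell types in the collagen differences was not tested.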

How the data were processed

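Total RNA (100 ng) from each sample was labelled as biotinylated cRNA for an Affymetrix mouse array. The authors deposited log2 signals made with RMA, per the submitters' processing notes, with no version given in the sources used here. RMA subtracts background, makes the arrays' distributions equal and combines probes into sets, and it narrows differences between dim signals. The 45101 probe sets had values from 2.51 to 14.51. Of these, 34958 carried 1 gene symbol, 932 several and 9211 none. RefSeq identifiers covered 34754 of the first and changed 0 symbols. Arrays give no read depth, and their number limits the precision.

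Tests used limma 3.58.1 in R 4.3.3 (lmFit, then eBayes with trend) for all 21 arrays with 7 group means and no block, with Benjamini-Hochberg adjustment over 18194 genes. Whether replicate numbers pair arrays was checked from correlations of deviations from group means. Between treated and control arrays sharing day and number, r was 0.178 to 0.679, above 0.1 in 9 of 9 pairs. For successive control days r was -0.0714 to 0.26, above 0.1 in 4 of 9 pairs. For successive treated days it was 0.0167 to 0.2, above 0.1 in 4 of 6. Arrays of successive days were left unpaired, though their highest r exceeded the lowest r between treated and control arrays. The paired fit therefore uses 9 blocks and 18 arrays. Every collagen may be named, and of each partner or marker list at most the 4 called members with the largest change. Some members of a marker list that did not follow its mean are named too. Members and lists were chosen with earlier results of these data known. The fits were tested on simulated data. Other settings were the normalisation, the probe set rule, a filter at the olfactory receptor 95th percentile, the trend, the arrays fitted, the block and each replicate left out. Fkbp10, Adamts2, Adamts14, Loxl2, Itga11, Fbn1, Runx2 and Noto were not analysed here.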

Additional observations from a re-analysis of the deposited data

Results flagged for a closer look

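The effect of ascorbic acid differed between days on a dimmer probe set of Col1a2 and on one of Col5a2, by an F test over days 2, 3 and 5 in the paired limma fit of probe sets. The adjusted p was 0.0111 for Col1a2 on 1423110_at, where the pair differences were largest at day 5. For Col5a2 on 1450625_at the adjusted p was 0.0489, close to the threshold of 0.05, and this probe set lies within the olfactory receptor range. In that fit 0.429% of all probe sets were called. The brightest probe sets of these genes did not pass the same test over genes (adjusted p = 0.0685 for Col1a2 and 0.122 for Col5a2).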

How the results depend on the processing

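Counts are of the 42 collagens called. With the replicate block of 9 pairs, ascorbic acid called 2 at day 5 and 3 on average, in place of 0, and changed no other count. With the number as a block across all days no call was lost. With the mean of a gene's probe sets the counts were 1 for ascorbic acid at day 5, 0 for day 0 to day 2 and 1 for day 2 to day 3 with ascorbic acid. With the filter on low values day 0 to day 2 gave 0. With only the arrays of the compared groups there were 0 for day 0 to day 2, 9 for day 0 to day 5, 1 for day 2 to day 3 in controls and 2 with ascorbic acid. With each probe set tested, an alternative chosen after seeing the data, there were 2 for ascorbic acid at day 5 and 1 for day 2 to day 3 in controls. Leaving out 1 array at a time gave 0 to 6 for day 0 to day 2, 10 to 20 for day 0 to day 5, 9 to 13 for day 3 to day 5 in each arm and 0 to 2 for ascorbic acid at day 5. Leaving out 1 pair at a time in the paired fit, also added later, gave 0 to 3 at day 2, 2 to 3 at day 5, 3 to 4 on average and 0 to 2 for the difference between days. In the settings that read 1 value per gene, no collagen called in the unpaired or the paired fit changed direction. Differences that neither fit called were not followed. With each probe set tested, direction was not followed, and some probe sets went the other way, as given for Col14a1, Col1a2 and Col4a6. The cause of the changes in count was not tested. Signal over background limits the 19 collagens within the olfactory receptor range.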
